A study of Mus musculus with 24 samples.

Results

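The nuclear genes for subunits of oxidative phosphorylation were described in the hypothalamus of aged mice that had eaten diets of different branched-chain amino acid (BCAA: leucine, isoleucine, valine) content. Members were chosen by symbol: names beginning with Ndufa, Ndufb, Ndufc, Ndufs or Ndufv (complex I, assembly factors named Ndufaf left out), Sdha to Sdhd (complex II), Uqcr and Cyc1 (complex III), Cox4i, Cox5, Cox6, Cox7 and Cox8 (complex IV) and Atp5 (complex V). Of 88 matching symbols, 3 carried pseudogene names and 2 lay below a mean of 1 FPKM (fragments scaled to transcript length and library total) over all libraries, so that 83 of 18777 listed symbols were members. They fell into 38 members of complex I, 4 of complex II, 9 of complex III, 15 of complex IV and 17 of complex V. All 83 were among the 13806 genes that reached the same minimum and entered the tests. Just inside the minimum lay Cox4i2, with a mean of 1.24 FPKM, and just outside lay Cox8b, with 0.632 FPKM, while Cox7b2 had 0.19 FPKM.

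The study measured total RNA of the hypothalamus in 24 C57BL6 mice aged 15 months, each on 1 of 4 diets since 12 weeks of age. The diets held 20, 50, 100 or 200% of the standard BCAA content (BCAA20, BCAA50, BCAA100 and BCAA200), and all held 63.4% carbohydrate, 18.8% protein and 17.8% fat at 14.4 MJ/kg. Each diet had 3 females (replicates 1 to 3) and 3 males (replicates 4 to 6), hence 8 groups. The 6 BCAA100 libraries, whose titles read Chow, were sequenced in lane 2 and the other 18 in lane 1, so for every comparison with BCAA100 diet and lane cannot be told apart. No label names a transgene, a mutation or a further treatment in any group.

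Oxidative phosphorylation couples the transfer of electrons to the making of ATP in the inner mitochondrial membrane. Complex I takes electrons from NADH and complex II from succinate, complex III passes them from ubiquinol to cytochrome c, and complex IV passes them on to oxygen. Complexes I, III and IV pump protons, and complex V, the ATP synthase, uses their return to make ATP. Most subunits are encoded in the nucleus and a few in mitochondrial DNA, and neurons draw most of their ATP from this pathway.

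Some libraries stood apart in which brain tissue their markers showed. The level of Slc17a7, which loads glutamate into vesicles of cortical neurons, was 6.23 FPKM for BCAA50 female replicate 1, and in the BCAA100 males 3.99 FPKM for replicate 5 and 12.6 FPKM for replicate 6. In the other libraries it was 105.7 to 249.8 FPKM. These 3 libraries also had the lowest levels of 2 other forebrain neuron genes. Neurod2 was at 0.378 to 0.518 FPKM in them and at 2.09 FPKM or more elsewhere, and Camk2a at 57.2 to 114 FPKM against 215 FPKM or more. Of the listed thalamus markers, they had the highest levels of Calb2 (108.6 to 151.3 FPKM, at most 101.7 elsewhere) and Slc17a6 (41.0 to 74.6 FPKM, at most 39.6 elsewhere). The low-level Gbx2 was also highest in them (1.355 to 3.647 FPKM, at most 1.156 elsewhere). The remaining thalamus markers were not high in BCAA100 male replicate 5. There Tcf7l2 was at 0.675, Prkcd at 4.065, Rora at 0.541 and Lef1 at 0.375 FPKM. In replicate 6 they were at 29.4, 89.2, 15.2 and 1.42 FPKM. The marker lists as a whole differed between the 3 libraries. The median deviation of the hypothalamic nuclei markers from their means over all libraries was 1.11 log2 in the BCAA50 female, 1.47 in replicate 5 of the BCAA100 males and -2.24 in their replicate 6. That of the thalamus markers was 2.42 in the BCAA50 female, -0.31 in replicate 5 and 2.62 in replicate 6. The summed level of all 18 hypothalamic markers ranged from 636.3 to 808.9 FPKM on BCAA20, 466 to 1214 on BCAA50, 91.98 to 1435 on BCAA100 and 477.1 to 931.9 on BCAA200, and none was at 0 in every library. The 12 markers of cortex and hippocampus summed to 488.5 to 669.6 FPKM on BCAA20, 163.7 to 762.3 on BCAA50, 130.4 to 581.1 on BCAA100 and 422.3 to 899.4 on BCAA200. In BCAA20 male replicate 6 the sex-linked genes went against the label, so it and the 3 libraries of low Slc17a7 are doubted, 4 in all. Depth is unknown, since FPKM values keep none. In whole tissue, fewer cells of a type and less RNA per cell cannot be told apart.

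The members were among the abundant transcripts of the hypothalamus. Their median mean level was 62.8 FPKM, against 8.12 FPKM over all genes tested, and 21 of 83 (25.3%) reached a mean of 100 FPKM, against 431 genes (3.12%) in all. Atp5b, the catalytic β subunit of the ATP synthase, led with a mean of 533 FPKM. It was followed by Cox4i1 (360 FPKM), a regulatory subunit of cytochrome c oxidase, Cox8a (310 FPKM), a small subunit of the same enzyme, and Atp5a1 (293 FPKM), the α subunit of the synthase. The median level by complex was 53.5 FPKM for complex I, 63.5 for II, 64.3 for III, 93.6 for IV and 76.7 for V. As a share of the summed FPKM of all members, complex I held 31.5%, complex II 4.12%, complex III 11.2%, complex IV 26.2% and complex V 27.0%. These shares moved little between libraries: that of complex I lay between 30.5 and 32.7%, and that of complex IV, the widest range, between 24.2 and 28.7%. The shares follow the gene names, and Ndufa4, counted in complex I by its name, held 3.26% of the sum. They also leave out the listed sequence copies described below, whose FPKM summed above the gene for 12 members. The order of the complexes by share depends on both choices. Members also varied less than most genes, with a median SD over the 24 libraries of 0.171 on the log2(FPKM + 0.5) scale, against 0.233 for all genes tested. The smallest SDs belonged to Atp5a1 (0.096), Cyc1, the cytochrome c1 of complex III (0.0978), and Atp5d, the δ subunit of the synthase (0.0999).

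**Figure D1:**
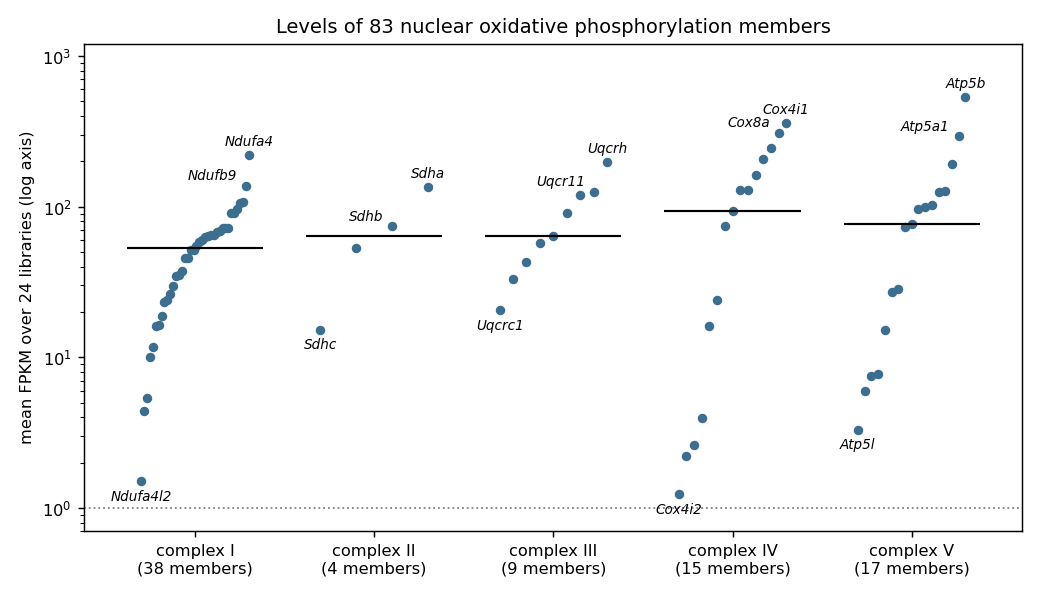
Mean FPKM over 24 libraries (log axis) of each of the 83 members, by complex, with 1 point per gene and a horizontal line at the median of the complex. The median lies between 53.5 FPKM in complex I and 93.6 FPKM in complex IV, and single members run from Cox4i2 at 1.24 FPKM to Atp5b at 533 FPKM; the dotted line marks the minimum of 1 FPKM.

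Within a complex, levels differed widely between catalytic subunits, accessory subunits and isoforms. In complex I, Ndufa4, which carries a complex I name but is now known as a subunit of cytochrome c oxidase, had 220 FPKM, and the accessory subunit Ndufb9 had 138 FPKM. Ndufs1, the iron-sulfur subunit of the electron entry module, averaged 15.8 ± 0.865 FPKM with BCAA20, 15.4 ± 1.43 with BCAA50, 17.5 ± 1.65 with BCAA100 and 16.4 ± 1.77 with BCAA200 (SD, n = 6 each). In complex II, Sdha, the flavoprotein that oxidizes succinate, had 135 FPKM, and Sdhb, the iron-sulfur subunit, 73.9 FPKM. The membrane anchors Sdhd and Sdhc had 53.1 and 15.3 FPKM, so Sdhc was the lowest of the 4 subunits. In complex III, Uqcrh, the hinge protein beside cytochrome c1, had 199 FPKM and Uqcr11 126 FPKM, while the core protein Uqcrc1 had 20.5 FPKM.

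For the subunits of cytochrome c oxidase with isoforms, those known from most tissues held nearly all of the signal. The ubiquitous isoform Cox4i1 had 360 FPKM and the isoform Cox4i2, best known from lung, 1.24 FPKM. Cox6a1 had 245 FPKM against 3.97 for Cox6a2, the heart and muscle isoform, and Cox6b1 208 FPKM against 2.63 for Cox6b2, known from testis. Cox7a2 had 129 FPKM and Cox7a2l, which takes part in joining complexes III and IV into supercomplexes, 74.8 FPKM, against 2.23 FPKM for the muscle isoform Cox7a1. Cox8a had 310 FPKM and the muscle isoform Cox8b 0.632 FPKM. Ndufa4 had 220 FPKM and its relative Ndufa4l2, a hypoxia-induced gene, 1.51 FPKM. The 3 genes that encode the same mature c subunit of the ATP synthase ring were at 192 FPKM for Atp5g3, 7.58 for Atp5g2 and 6.003 for Atp5g1. These levels are per length of transcript, and the low values of Atp5g1 and Atp5g2 are subject to the sharing of reads with pseudogenes described below. With the FPKM of their listed copies added, the means were 98.15 FPKM for Atp5g2 and 122 FPKM for Atp5g1.

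Promoter sequence was at hand for 68 of the 83 members, in the RefSeq tables for GRCm38.p6, as windows of 250 bases before and 50 bases after a gene's start. They were searched on both strands for the letters of motifs linked with genes of the respiratory chain: GCGCATGCG (bound by NRF1), CCGGAAG (the ETS family, GABP among them), AAGATGGCG (YY1) and TCAAGGTCA (estrogen-related receptors). The NRF1 letters were found in 8 of 68 members (11.8%), against 4.2% of 9216 genes tested that had a window and 2.0% of all 27025 genes with one. The YY1 letters were also found in 8 members (11.8%), against 3.6 and 1.6%. The ETS letters were found in 16 members (23.5%), against 19.3 and 9.9%, and the letters of the estrogen-related receptors in 2 (2.9%), Sdhd and Atp5g3, against 0.4 and 0.5%. A match is a description of the letters and not a binding site. In the first window of each gene, the YY1 letters occurred in 7 members, in each of them between bases 23 and 36 after the start, counting the first transcribed base as 1. The letters TATAAA were found in 7.4% of members, against 8.4 and 15.7%, and CCAAT in 44.1%, against 42.4 and 41.1%.

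The windows of 5 members are shown because they carry these letters or belong to the members with the lowest p-values in the comparisons. Ndufs4 holds the YY1 letters downstream of the start, Uqcrc1 and Cox6a1 hold the NRF1 letters on both strands (overlapping by all but 1 base), Cox6a1 also the ETS letters, and Atp5g3 those of the estrogen-related receptors. Atp5b, the most abundant member, holds none of the 4 in this window. Each is written 5′ to 3′ on the gene's strand, with matches in capitals. The regions are chr13:114388045-114388344 (minus strand) for Ndufs4, chr9:108936398-108936697 (plus) for Uqcrc1, chr5:115348909-115349208 (minus) for Cox6a1, chr2:73911277-73911576 (minus) for Atp5g3 and chr10:128083057-128083356 (plus) for Atp5b.
Ndufs4: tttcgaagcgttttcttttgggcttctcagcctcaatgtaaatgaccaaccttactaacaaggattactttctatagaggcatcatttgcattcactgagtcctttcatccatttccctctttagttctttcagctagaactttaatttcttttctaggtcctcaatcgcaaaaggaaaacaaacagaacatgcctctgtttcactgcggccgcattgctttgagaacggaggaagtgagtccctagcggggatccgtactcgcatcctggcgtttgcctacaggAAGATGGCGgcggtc
Uqcrc1: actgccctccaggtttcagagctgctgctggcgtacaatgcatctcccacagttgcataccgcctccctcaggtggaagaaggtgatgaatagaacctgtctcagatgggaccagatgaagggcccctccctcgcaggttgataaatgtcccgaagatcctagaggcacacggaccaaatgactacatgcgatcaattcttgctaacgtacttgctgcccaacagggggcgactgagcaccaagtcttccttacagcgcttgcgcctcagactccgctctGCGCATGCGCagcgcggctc
Cox6a1: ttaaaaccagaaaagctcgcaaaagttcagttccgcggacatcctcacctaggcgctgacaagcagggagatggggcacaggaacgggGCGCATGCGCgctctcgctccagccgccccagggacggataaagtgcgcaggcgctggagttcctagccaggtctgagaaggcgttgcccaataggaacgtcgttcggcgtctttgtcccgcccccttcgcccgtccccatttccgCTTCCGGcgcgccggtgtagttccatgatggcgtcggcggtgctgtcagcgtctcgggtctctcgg
Atp5g3: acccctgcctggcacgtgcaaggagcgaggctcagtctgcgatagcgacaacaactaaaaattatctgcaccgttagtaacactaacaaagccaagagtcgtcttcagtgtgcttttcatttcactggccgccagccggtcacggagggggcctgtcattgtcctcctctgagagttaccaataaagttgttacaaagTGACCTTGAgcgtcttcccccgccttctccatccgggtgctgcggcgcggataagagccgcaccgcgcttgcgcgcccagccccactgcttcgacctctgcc
Atp5b: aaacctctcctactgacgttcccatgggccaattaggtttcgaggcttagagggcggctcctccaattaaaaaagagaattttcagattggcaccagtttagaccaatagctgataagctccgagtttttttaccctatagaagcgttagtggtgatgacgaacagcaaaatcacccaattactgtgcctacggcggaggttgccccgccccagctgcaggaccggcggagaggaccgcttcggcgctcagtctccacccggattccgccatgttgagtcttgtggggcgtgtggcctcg

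The highest against the lowest BCAA content, BCAA200 against BCAA20, was compared within lane 1, and the members differed little. Tests used limma on log2(FPKM + 0.5) over all 13806 genes, with a threshold of 0.05 for the Benjamini-Hochberg adjusted p, and 0 of 83 members passed, as did 0.0% of all genes. One member (Atp5f1) had an unadjusted p under 0.05, against 2.89% of all genes. The median log2 difference of the members was -0.0149, with 47 of 83 (56.6%) below 0, beside -0.0142 and 55.1% for all genes. By complex the median was -0.0166 for I, -0.0561 for II, 0.0182 for III, 0.0613 for IV and -0.0204 for V. The summed FPKM of the members was 6567 ± 351.8 on BCAA200 and 6608 ± 250.9 on BCAA20 (SD, n = 6 each). BCAA200 against BCAA50 gave 0 members past the threshold in limma (0.0% of all genes) and 1 with an unadjusted p under 0.05, Ndufc1, against 2.52% of all genes. BCAA50 against BCAA20 gave 0 (0.0%) and 2 (Cox4i2 and Ndufs3), against 2.68% of all genes. The slope per doubling of BCAA content over the lane 1 diets gave 0 (0.0%) and 2 (Atp5f1 and Ndufc1), against 2.83%. Members' shares at an unadjusted p under 0.05 were thus no larger than the background in any of these comparisons.

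For the members with the lowest unadjusted p within lane 1, the diets overlapped. Atp5f1, the b subunit in the stalk of the ATP synthase, ranged from 29.8 to 76.2 FPKM (median 62.6) on BCAA200 and from 63.8 to 118 FPKM (median 69.0) on BCAA20. The lowest levels were in BCAA200 male replicate 5 and BCAA200 female replicate 2 (31.6 FPKM), the highest on BCAA20 was in female replicate 1, and the groups overlapped. The log2 difference was -0.53 ± 0.24 (SE; unadjusted p = 0.0377, limma adjusted p = 1), it was -0.37 without BCAA200 female replicate 2, and it was -0.21 when the FPKM of Gm12231, a listed copy of its sequence, was added. Ndufc1, a small accessory subunit of complex I, ranged from 8.71 to 27.8 FPKM (median 13.3) on BCAA200 and from 8.34 to 11.3 FPKM (median 10.5) on BCAA50. The value of 27.8 FPKM was that of BCAA200 female replicate 2. Of the BCAA200 libraries, 5 of 6 exceeded every BCAA50 library, and male replicate 5 (8.71 FPKM) lay within the BCAA50 range. The log2 difference of Ndufc1 was 0.47 ± 0.18 (SE; unadjusted p = 0.0161, limma adjusted p = 1), and it was 0.295 (unadjusted p = 0.0614) without BCAA200 female replicate 2. Cox4i2, near the minimum, ranged from 1.12 to 1.70 FPKM (median 1.45) on BCAA50 and from 0.366 to 1.73 FPKM (median 0.72) on BCAA20, so that 4 of 6 BCAA20 libraries lay below every BCAA50 library and 1 lay above them all. Its log2 difference was 0.55 ± 0.22 (SE; unadjusted p = 0.0201, limma adjusted p = 1) and was 0.35 without BCAA20 male replicate 6, whose sex-linked genes go against its label. On the scale with 0.5 FPKM added, differences of such low genes are understated.

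Against BCAA100, most members had slightly lower levels in the 3 altered diets, and none passed the threshold. With the mean of BCAA20, BCAA50 and BCAA200 set against BCAA100, 0 of 83 members passed in limma, against 0.0217% of all genes (3 of 13806), and the lowest adjusted p was 0.138. The log2 difference was below 0 in 72 of 83 members (86.7%), against 63.1% of all genes, and its median was -0.116, against -0.0445. An unadjusted p under 0.05 was found in 26 members, all 26 with a lower level in the altered diets, against 12.3% of all genes in either direction and 7.85% in that direction. That number was 14 without BCAA100 male replicate 5 and 40 without BCAA100 male replicate 4, and 63 of 83 members lay below 0 when columns were scaled by their median ratio. Every complex had a median below 0: -0.106 for I (34 of 38 below 0), -0.152 for II (4 of 4), -0.121 for III (7 of 9), -0.105 for IV (11 of 15) and -0.116 for V (16 of 17). The 3 diets share the BCAA100 libraries as their reference, so their values side by side are not independent. BCAA20 had 14 members with an unadjusted p under 0.05, all lower, against 7.09% of all genes in either direction and 4.15% lower. BCAA50 had 13, all lower, against 7.65 and 4.87%, and BCAA200 had 23, all lower, against 11.7 and 7.52%. With each library left out in turn, these numbers spanned 4 to 32 for BCAA20, 3 to 26 for BCAA50 and 13 to 37 for BCAA200. The highest of each came without BCAA100 male replicate 4, and the lowest without BCAA100 male replicate 5 for BCAA20 and BCAA200 and without BCAA50 female replicate 2 for BCAA50. Past the adjusted threshold lay 0 members in each, by limma, against 0.0% of all genes for BCAA20, 0.0% for BCAA50 and 0.0145% for BCAA200. The moderated F test for any difference over the 4 diets gave 0 members past the threshold, against 0.0% of all genes, and 8 with an unadjusted p under 0.05, against 5.95%.

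The difference was smaller without the libraries of low Slc17a7. With those 3 left out, the median of the members was -0.0145 and 48 of 83 (57.8%) lay below 0, against -0.0201 and 55.4% for all genes. None passed in limma, against 0.652% of all genes, and 2 had an unadjusted p under 0.05 (Cox7a1 and Atp5g3), against 10.6% of all genes. The medians by complex were then 0.000322 for I, -0.0672 for II, -0.0302 for III, -0.00166 for IV and -0.0497 for V. The members' deviation in a library, taken as the median over members of log2 value minus the gene's mean over all libraries, was 0.28 in both replicate 5 and replicate 6 of the BCAA100 males. It was 0.23 in BCAA50 male replicate 5, where Slc17a7 was at 203.2 FPKM, and at most 0.06 in every other library. Of the 83 members, 34 had their highest value of all libraries in the BCAA100 male of replicate 5 (17.6% of all genes did), 17 in that of replicate 6 (11.8%) and 20 in the BCAA50 male of replicate 5 (5.6%). The mean deviation was -0.027 ± 0.0441 with BCAA20, -0.00763 ± 0.133 with BCAA50, 0.0788 ± 0.167 with BCAA100 and -0.0324 ± 0.0652 with BCAA200 (SD, n = 6 each), and -0.0218 ± 0.0784 in the 4 BCAA100 libraries that remained. The summed FPKM of the members was 6608 ± 250.9 with BCAA20, 6675 ± 571.8 with BCAA50, 7071 ± 831 with BCAA100 and 6567 ± 351.8 with BCAA200 (SD, n = 6 each), and 6581 ± 429.2 in those 4 BCAA100 libraries. The part of regional markers in the difference was not tested beyond leaving these libraries out.

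**Figure D2:**
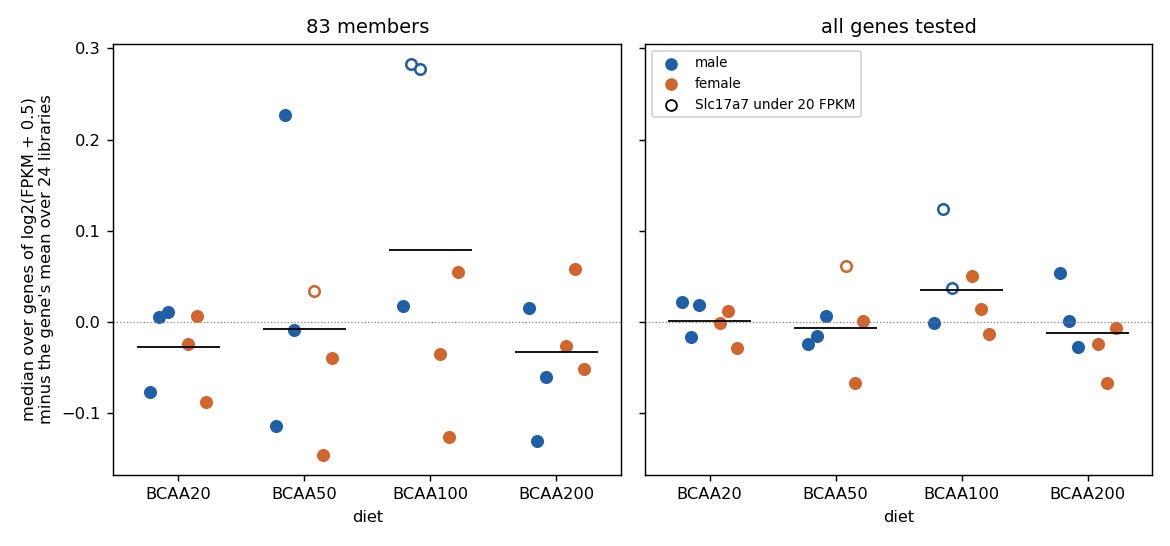
For each library, the median over the 83 members (left) and over all genes tested (right) of log2(FPKM + 0.5) minus the gene's mean over 24 libraries, by diet, with males left of females and a line at the mean of each diet; open points have Slc17a7 under 20 FPKM. The members' median is 0.28 in both open points of BCAA100 and 0.23 in 1 BCAA50 male, and at most 0.06 elsewhere.

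**Figure D3:**
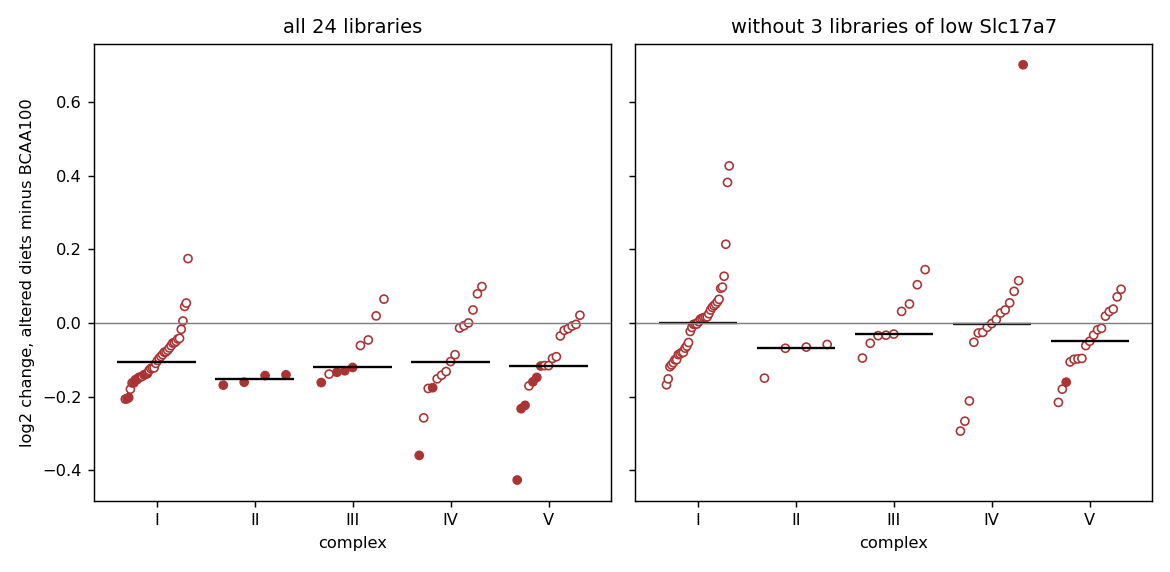
Log2 difference of the altered diets minus BCAA100 for each member, by complex, with all 24 libraries (left) and without the 3 libraries of low Slc17a7 (right); filled points have an unadjusted p under 0.05 and lines are medians. The median of all members is -0.116 on the left, with 26 filled points, and -0.0145 on the right, with 2.

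In complex I, 10 of 38 members had an unadjusted p under 0.05 in the altered diets, all lower. Of all genes, 12.3% had such a p in either direction and 7.85% with a lower level. Ndufs4, a subunit near the electron entry module whose loss causes Leigh syndrome in humans and a like disease in mice, was at 24.3 to 28.2 FPKM (median 25.6) on BCAA20, 23.7 to 26.8 (26.2) on BCAA50, 24.9 to 34.1 (28.3) on BCAA100 and 22.1 to 25.8 (25.0) on BCAA200. Its highest level was in BCAA100 male replicate 5, and BCAA100 overlapped every other diet. For BCAA200 against BCAA100 its log2 difference was -0.20 ± 0.06 (SE; limma adjusted p = 0.25). Ndufa2, an accessory subunit, gave -0.23 ± 0.09 and Ndufs1 -0.18 ± 0.07 for BCAA50 against BCAA100 (SE; limma adjusted p = 0.561 for each). Among 6 core subunits, the log2 differences of the altered diets against BCAA100 were -0.14 for Ndufs1, -0.21 for Ndufs3, -0.14 for Ndufs7, -0.10 for Ndufs8, -0.13 for Ndufv1 and -0.10 for Ndufv2. Those 6 subunits carry the flavin and iron-sulfur centres or line the path of electrons and quinone, and 2 of them had an unadjusted p under 0.05 (Ndufs1 and Ndufs7). Without the libraries of low Slc17a7, their differences lay between -0.00275 for Ndufv2 and -0.119 for Ndufs7. In the opposite direction lay Ndufa3, with 0.18 ± 0.24 (SE; limma adjusted p = 0.794).

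All 4 subunits of complex II had an unadjusted p under 0.05 and lower levels in the altered diets, against 7.85% of all genes. Sdhb was at 67.1 to 77.5 FPKM (median 71.9) on BCAA20, 62.8 to 84.0 (68.2) on BCAA50, 72.2 to 94.9 (79.7) on BCAA100 and 67.7 to 79.1 (69.7) on BCAA200. The BCAA100 range overlapped that of each other diet, and its top value was in male replicate 5. The log2 differences of the altered diets against BCAA100 were -0.17 ± 0.06 for Sdhb, -0.16 ± 0.06 for Sdhc, -0.14 ± 0.06 for Sdhd and -0.14 ± 0.06 for Sdha (SE; limma adjusted p from 0.266 to 0.35). Without the libraries of low Slc17a7 they were -0.15, -0.07, -0.06 and -0.07, with adjusted p of 0.49, 0.77, 0.839 and 0.791. Complex II stayed at a small share of the members' signal, between 3.57 and 4.62% in any library.

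In complex III, 7 of 9 members were below 0 and 4 had an unadjusted p under 0.05, as did 12.3% of all genes. Cyc1 was at 84.3 to 93.9 FPKM (median 88.8) on BCAA20, 81.4 to 93.3 (88.4) on BCAA50, 88.4 to 109 (93.3) on BCAA100 and 84.0 to 88.7 (87.6) on BCAA200. BCAA200 and BCAA100 thus barely overlapped, while BCAA20 and BCAA50 overlapped BCAA100. Its log2 difference for the altered diets was -0.13 ± 0.04 (SE; limma adjusted p = 0.239), and -0.06 without the libraries of low Slc17a7. The core proteins Uqcrc1 and Uqcrc2 gave -0.16 and -0.12 and the Rieske iron-sulfur protein Uqcrfs1 -0.13. Uqcr11, the smallest subunit, was above 0 with 0.06 ± 0.08 (SE; limma adjusted p = 0.749).

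In complex IV, 11 of 15 members were below 0 and 2 had an unadjusted p under 0.05, Cox5b and Cox7a2l. That number lies near the share of 12.3% over all genes. Cox7a2l was at 65.8 to 78.5 FPKM (median 72.4) on BCAA20, 66.2 to 79.4 (72.3) on BCAA50, 71.6 to 105.5 (75.2) on BCAA100 and 68.9 to 75.2 (70.3) on BCAA200. The 2 highest values, 105.5 and 93.7 FPKM, were those of BCAA100 male replicates 5 and 6, and all other libraries lay within 65.8 to 79.4 FPKM. Its log2 difference for the altered diets was -0.18 ± 0.06 (SE, limma adjusted p = 0.217). It was -0.05 without the libraries of low Slc17a7 and -0.08 with the FPKM of its listed copy added. Cox5b, a zinc-binding subunit, was at 15.9 to 23.4 FPKM (median 21.7) on BCAA20 and 24.3 to 49.7 FPKM (median 25.1) on BCAA100, ranges that did not overlap. The value of 49.7 FPKM was that of BCAA100 female replicate 3, and the next highest on that diet was 29.1 FPKM. The log2 difference for BCAA20 against BCAA100 was -0.44 ± 0.15 (SE, limma adjusted p = 0.573). It was -0.27 without BCAA100 female replicate 3 and -0.13 with the FPKM of the listed copy Gm11273 added. Cox8a was at 273.9 to 351.6 FPKM (median 297.9) on BCAA20, 263.6 to 387.4 (316.8) on BCAA50, 233.4 to 370 (293.8) on BCAA100 and 252.5 to 379.1 (320.2) on BCAA200. All 4 ranges overlapped, and the log2 difference of the altered diets was 0.08 ± 0.09 (SE; limma adjusted p = 0.728). Cox7a1 was at 1.61 to 2.77 FPKM on BCAA20, 1.64 to 3.37 on BCAA50, 0.543 to 5.10 on BCAA100 and 1.15 to 3.12 on BCAA200. Both ends of its range were BCAA100 males, replicate 4 with 0.543 and replicate 6 with 5.10 FPKM, and its log2 difference was 0.10 ± 0.25 (SE; limma adjusted p = 0.897), or 0.70 (limma adjusted p = 0.226) without the libraries of low Slc17a7.

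In complex V, 16 of 17 members were below 0 and 6 had an unadjusted p under 0.05, as did 12.3% of all genes. Atp5g3, 1 of the 3 genes for the c subunit of the ring, had the lowest p of all members. It was at 174.9 to 208.2 FPKM (median 184.9) on BCAA20, 167.9 to 220 (187.4) on BCAA50, 170.5 to 274.5 (208.7) on BCAA100 and 162.2 to 192.6 (171.6) on BCAA200. BCAA100 males were at 219.2, 274.5 and 244.5 FPKM, and the highest library outside BCAA100 was BCAA50 female replicate 1 with 220 FPKM, which is also of low Slc17a7; every diet overlapped BCAA100. For BCAA200 against BCAA100 the log2 difference was -0.30 ± 0.07 (SE; unadjusted p = 0.000576, limma adjusted p = 0.162), and for the altered diets together it was -0.22 ± 0.06 (SE; unadjusted p = 0.00122, limma adjusted p = 0.138). Without the libraries of low Slc17a7 it was -0.16 (limma adjusted p = 0.353), and without BCAA50 female replicate 1 alone it was -0.24 with an adjusted p of 0.0291, past the threshold. Atp5b was at 483.4 to 525.8 FPKM (median 519.1) on BCAA20, 479.6 to 572.6 (529.8) on BCAA50, 523.6 to 671.6 (558.4) on BCAA100 and 466.9 to 537.7 (516.8) on BCAA200. The highest BCAA20 library (525.8 FPKM) and the highest BCAA200 library (537.7 FPKM) each exceeded only the lowest BCAA100 library (523.6 FPKM). On BCAA50, Atp5b overlapped BCAA100 more. Its log2 difference was -0.16 ± 0.05 for the altered diets (SE; limma adjusted p = 0.181) and -0.10 without the libraries of low Slc17a7 (adjusted p = 0.539). Atp5f1 was the member with the largest size of difference, -0.75 ± 0.24 for BCAA200 against BCAA100 (SE; limma adjusted p = 0.25), and -0.40 with the FPKM of its copy added. Atp5s, coupling factor B, enters by its name, as does Atp5sl, known for a part in complex I assembly; they gave -0.23 ± 0.09 and -0.12 ± 0.16 for the altered diets (SE; limma adjusted p = 0.295 and 0.798).

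**Figure D4:**
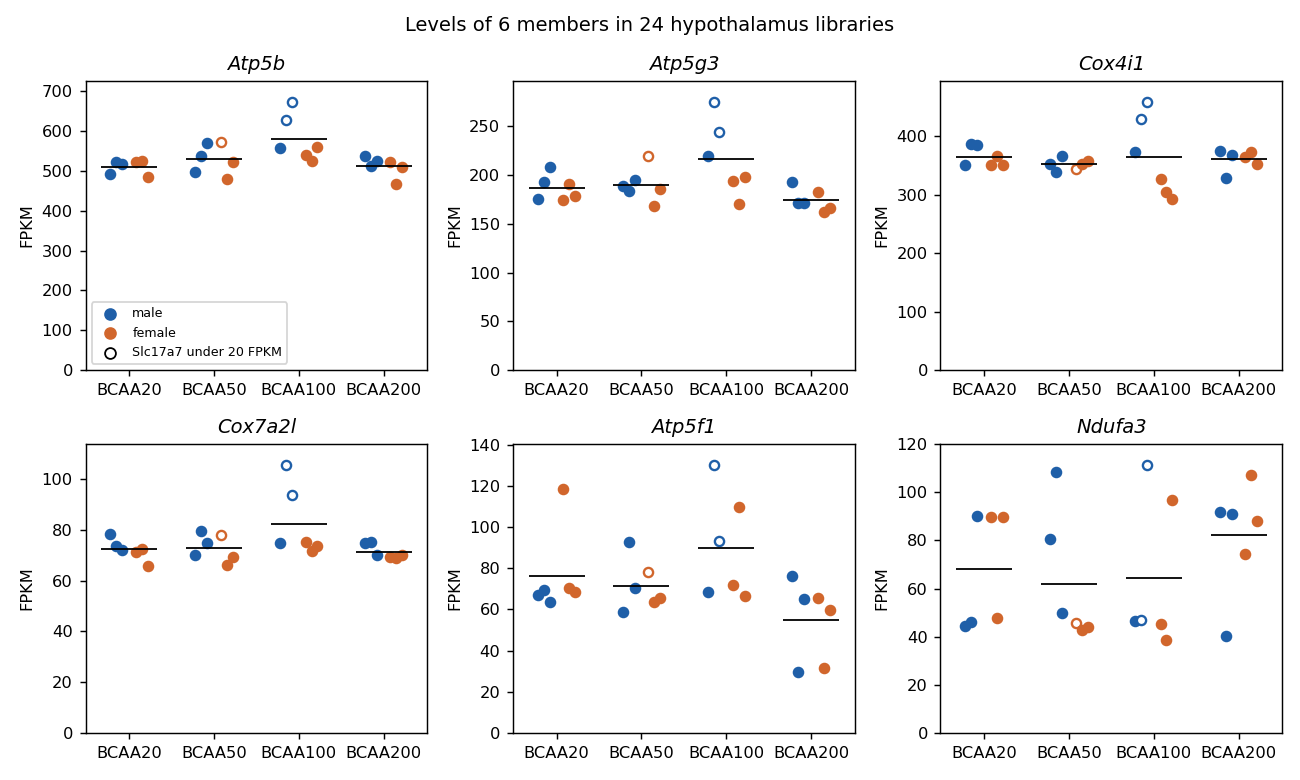
FPKM of 6 members in each of the 24 libraries, by diet, with males left of females, a line at the mean of each diet and open points for Slc17a7 under 20 FPKM. The open BCAA100 points are the 2 highest for Atp5b (628 and 671.6 FPKM), Atp5g3 (274.5 and 244.5), Cox4i1 (429 and 458) and Cox7a2l (105.5 and 93.7), Atp5f1 has its lowest points on BCAA200 (29.8 and 31.6), and Ndufa3 falls into 2 levels in every diet.

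Between the sexes, most members had slightly higher levels in the libraries labelled male. These include BCAA20 male replicate 6, whose sex-linked genes go against its label. The log2 difference of males against females was above 0 in all but 9 of the 83 members, with 10.8% below 0 against 41.2% of all genes, and its median was 0.0598 against 0.021. None passed in limma (0.0652% of all genes did), and 4 had an unadjusted p under 0.05, all higher in males, against 4.27% of all genes in either direction and 2.86% higher. That number was 3 without BCAA100 male replicate 5 and 18 without BCAA100 male replicate 4. Without the 3 libraries of low Slc17a7 the members' median was 0.031, with 25 of 83 (30.1%) below 0, against 0.0162 and 43.2% for all genes, and 2 members had an unadjusted p under 0.05. Without BCAA20 male replicate 6 alone the median was 0.0567, with 11 members below 0. Cox4i1 ranged from 328 to 458 FPKM (median 370.2) in males and from 292.5 to 373.9 FPKM (median 352.4) in females, overlapping widely. Its log2 difference was 0.12 ± 0.04 (SE; unadjusted p = 0.00466, limma adjusted p = 0.941). Cox7a2l gave 0.14 ± 0.05, Atp5g3 0.13 ± 0.05 and Ndufa4 0.17 ± 0.08 (SE; limma adjusted p = 0.941 for each).

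For most members, the log2 difference of the altered diets against BCAA100 lay lower in males than in females. The test of that difference gave 0 members past the threshold in limma (0.0% of all genes), a median of -0.194 log2 against -0.0193 for all genes, and 79 of 83 (95.2%) below 0 against 53.2%. An unadjusted p under 0.05 was found in 16 members, all below 0, against 6.37% of all genes in either direction and 2.37% below 0. That number was 5 without BCAA100 male replicate 5 and 37 without BCAA100 male replicate 4. Cox4i1 had the lowest p. It was at 328 to 386 FPKM in males of the altered diets and at 372.6, 429.1 and 457.9 FPKM in BCAA100 males, and it was at 344.5 to 373.9 FPKM in females of the altered diets and at 327.4, 305.1 and 292.5 FPKM in BCAA100 females. BCAA100 females thus lay below every female of the other diets, while BCAA100 males overlapped the other males through replicate 4. The log2 difference between the sexes was -0.43 ± 0.09 (SE; unadjusted p = 0.00011, limma adjusted p = 0.592). Without the libraries of low Slc17a7, which leave BCAA100 with 1 male, it was -0.26 (unadjusted p = 0.0175, limma adjusted p = 0.695), the members' median was -0.0115 and 3 members had an unadjusted p under 0.05. In that setting 5.56% of all genes had an unadjusted p under 0.05 and 0.0724% passed, none of them a member. The BCAA100 male deviation of the members averaged 0.193 ± 0.151 and the BCAA100 female one -0.0352 ± 0.0903 (SD, n = 3 each). In single females the deviation lay between -0.126 and 0.055 on BCAA100 and between -0.146 and 0.0585 on the altered diets. Females of BCAA100 and of the altered diets thus spanned nearly the same range. In males it lay between 0.0182 and 0.283 on BCAA100 and between -0.130 and 0.227 on the altered diets.

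Other genes linked with mitochondria, and genes of glycolysis and of the cytosolic ribosome, were set beside the members. The lists were put together for this description. In the altered diets against BCAA100, the median of all genes tested was -0.0445, with 63.1% below 0. The median log2 difference was -0.119 for 9 carriers of electrons, ATP and phosphate (8 below 0), -0.116 for 16 regulators of mitochondrial biogenesis (13), -0.108 for 21 genes of import and membrane shape (20), -0.0806 for 18 genes of the tricarboxylic acid cycle (14) and -0.0775 for 46 assembly factors (36). It was -0.0638 for 77 genes of the mitochondrial ribosome (53 below 0, or 68.8%), -0.0883 for 78 of the cytosolic ribosome (68) and -0.0438 for 16 of glycolysis (11, or 68.8%). By median and number below 0, the mitochondrial ribosome and glycolysis thus lay near the background. By unadjusted p in either direction, glycolysis, the carriers and the regulators lay above it. No gene of these lists passed in limma. An unadjusted p under 0.05 was found in 3 of 9 carriers, 4 of 16 regulators, 2 of 21 genes of import, 2 of 18 of the tricarboxylic acid cycle, 5 of 46 assembly factors, 8 of 77 of the mitochondrial ribosome, 9 of 78 of the cytosolic ribosome and 6 of 16 of glycolysis, against 12.3% of all genes. Without the libraries of low Slc17a7 the medians were -0.00163 for the carriers, -0.0743 for the regulators, -0.0579 for import, -0.0147 for the tricarboxylic acid cycle, 0.00303 for the assembly factors, 0.00862 for the mitochondrial ribosome, -0.0274 for the cytosolic ribosome and 0.0632 for glycolysis. Beside these, 10 of 11 tested markers of cortex and hippocampus lay above 0 in the altered diets, with a median of 0.90 log2, and 10 of 10 oligodendrocyte markers lay below 0, with a median of -0.26. Marker differences remained without the libraries of low Slc17a7. The median was then 0.473 for cortex and hippocampus (10 of 11 above 0) and -0.133 for oligodendrocytes (10 of 10 below 0). It was -0.919 for striatum (8 of 8 below 0) and -0.258 for hypothalamus (10 of 13 below 0). Other lists differed as well, with 0.653 for blood (5 of 5 above 0), 0.411 for meninges (6 of 6) and 0.115 for microglia (7 of 8). The median was 0.287 for choroid plexus, 0.134 for thalamus, 0.0949 for astrocytes, 0.0201 for ependyma and tanycytes and -0.227 for endothelium. The part of tissue markers in the members' values was not tested.

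Several members share sequence with copies elsewhere in the genome, which bears on how far their own values can be read. Of the 83, 22 shared at least 5% of the 50-base stretches of their coding transcripts with another locus, and for 15 of them such a copy was itself listed with FPKM values. In 12 of the 15 the copies summed to more than the gene. Atp5l, the g subunit of the ATP synthase, had a mean of 3.32 FPKM and its copies 265 FPKM, Atp5g1 had 6.003 FPKM and its copy Gm10039 116 FPKM, and Cox7c, a small subunit of cytochrome c oxidase, had 16.2 FPKM and its copies 268.5 FPKM. These levels are uncertain, because the sources used here do not give how the authors assigned such reads. The coding sequence of Cox7c (chr13:86044816-86046904, minus strand) and that of the pseudogene Gm12338 (chr11:75599763-75599954, minus strand) are shown as the clearest case: all 192 bases are identical, so no read within them can tell the loci apart.
Cox7c: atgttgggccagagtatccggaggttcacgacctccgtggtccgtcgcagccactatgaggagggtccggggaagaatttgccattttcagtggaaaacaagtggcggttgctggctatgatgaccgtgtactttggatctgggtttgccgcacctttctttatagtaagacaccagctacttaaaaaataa

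Adding the copies changed the spread between libraries in both directions, with a smaller SD in 10 of the 15 members and a larger one in 5 (Ndufa12, Atp5l, Atp5g2, Ndufb11 and Uqcrb). Where the copies hold most of the sum, its SD is mainly theirs. The SD over 24 libraries on the log2 scale was 0.577 for Ndufab1, the mitochondrial acyl carrier protein of complex I. It was 0.140 for Ndufab1 with its listed copy Gm4459, which holds 50.2 of 54.65 FPKM. It was 0.471 for Atp5f1 and 0.235 with its copy, and 0.283 for Ndufs3 and 0.150 with its listed copy. For Cox5b it was 0.298 alone and 0.175 with its listed copy Gm11273, which holds 202.7 of 226.9 FPKM. Gm11273 is annotated as protein-coding and not as a pseudogene. For Ndufa12 the SD was 0.128 alone and 0.242 with its listed copy. Ndufab1 had 5 libraries at 1.28 to 2.09 FPKM and 19 at 3.84 to 6.66 FPKM, with none between. Ndufa3, an accessory subunit of complex I, likewise had 12 libraries at 38.6 to 49.7 FPKM and 12 at 74.3 to 111.3 FPKM. The 12 libraries at the upper level of Ndufa3 came from 3 mice of BCAA20, 2 of BCAA50, 2 of BCAA100 and 5 of BCAA200, or 6 males and 6 females. A gap of over 0.5 log2 with at least 4 libraries on each side was found in 2 of 83 members (2.41%), against 4.24% of all genes tested.

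**Figure D5:**
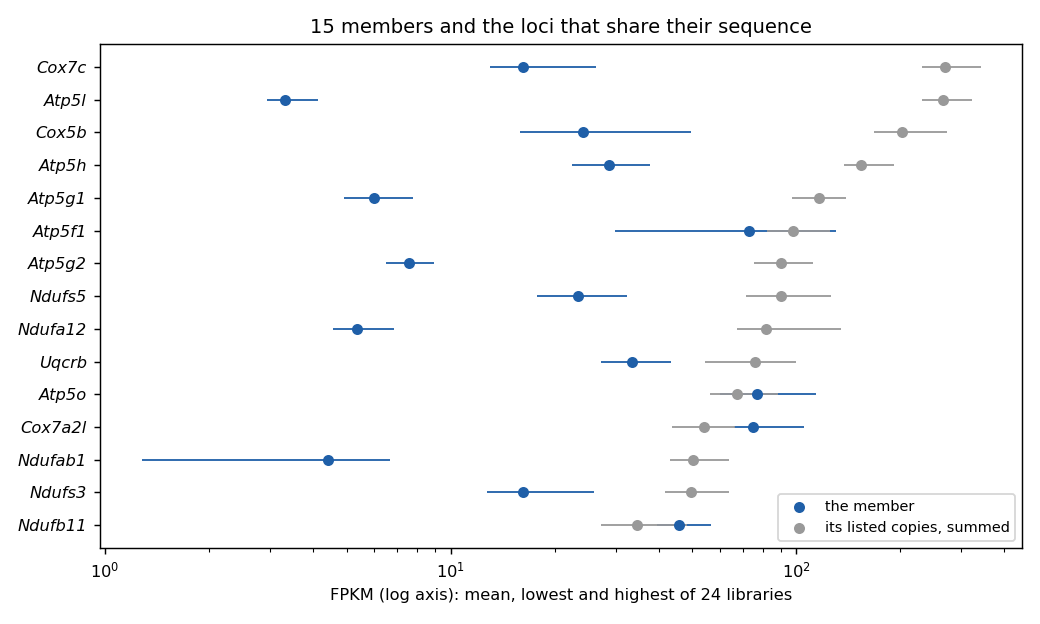
FPKM (log axis) of 15 members and of the summed listed loci that share at least 5% of their 50-base stretches, as the mean (point) and the lowest to highest of 24 libraries (line). The copies' mean lies above that of the gene in 12 of the 15, by the widest margin for Atp5l (265 against 3.32 FPKM).

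The subunits encoded in mitochondrial DNA, which complete complexes I, III, IV and V, were not analysed here, as none of the 15 mitochondrial genes is among the listed symbols. Nuclear pseudogenes that share sequence with them were listed at very high levels. Gm29216 had a mean of 8290 FPKM and shares 28.7% of the 50-base stretches of mt-Co1, Gm10925 had 7899 FPKM and shares 99.5% of mt-Atp6, Gm28661 had 5726 FPKM and shares 99.5% of mt-Co2, and Gm28437 had 5704 FPKM and shares 99.9% of mt-Co3. In all, 10 such pseudogenes covered 8 mitochondrial genes, and their summed FPKM was 34144 ± 2365 with BCAA20, 35553 ± 7243 with BCAA50, 34107 ± 4387 with BCAA100 and 36197 ± 7661 with BCAA200 (SD, n = 6 each). None passed in limma in any comparison, and their lowest unadjusted p was 0.112, for Gm10222, a near copy of mt-Nd4l, in BCAA200 against BCAA100.

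The authors' deposited table also gives, for each gene, a Pearson correlation of FPKM with the BCAA intake of the animals and its unadjusted p. In the authors' deposited table, 1 of 83 members (1.2%) had a p under 0.05, against 518 of 18777 symbols (2.76%), and the median coefficient was -0.0627 for the members and -0.0161 for all symbols. That member was Ndufc1, with a coefficient of 0.412 (p = 0.0453) in the authors' deposited table, while 55 of the 83 members had a coefficient below 0 there. Diet and lane enter these coefficients together, since intake follows the diet.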

How the data were processed

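Total RNA libraries of 24 mouse hypothalami were grouped by the diet and sex that the labels give, as 8 groups of 3. The authors deposited FPKM values per gene symbol and library, with a Pearson coefficient (a score per gene) against BCAA intake and its unadjusted p-value. Per the submitters' processing notes, the tools include TopHat2 2.0.14 and StringTie 1.2.4, with the build GRCm38 and no role given. Every library column was matched to its sample by name.

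Computed here were log2(FPKM + 0.5) values of the 13806 genes that averaged 1 FPKM or more, and linear models with 8 group means in limma 3.58.1 (R 4.3.3). Moderation was robust and followed a trend of variance with level, and 16 degrees of freedom were left. Each diet contrast weighted both sexes equally, tests were two-sided, and p-values were adjusted over all genes. FPKM values hold no counts, so depth is unknown and no counting interval is given. Columns summed to between 293850 and 328809 FPKM, and no 2 libraries were identical. The fitting steps were tested on simulated data. Sequence sharing was counted as distinct 50-base stretches over all coding transcripts of a gene in GENCODE on GRCm38. All 83 members were found there, and promoters are from RefSeq.

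The members, the gene lists and the rule for the genes named were chosen with earlier results of these data known. The rule takes, per complex, the 2 highest and the lowest member, per comparison the 3 members per direction with the lowest unadjusted p, core subunits, isoform pairs, the symbols beside the minimum, and the members of largest and smallest SD. Named members whose difference lay near 0 are covered by the counts; for 1 further member no value of its own is reported here. Alternatives were other pseudocounts, filters, scalings, weights and moderation, a replicate block, leaving out each library, and a fit of only the groups in a comparison. Leaving out the doubted libraries and adding the FPKM of copies were chosen after seeing the data.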

Additional observations from a re-analysis of the deposited data

Results flagged for a closer look

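In 7 of 68 sets of 6 libraries (a diet and a measure of the members), 1 library lay far from the other 5. The mark was a gap to its neighbour of more than 0.625 of the whole range. That cut-off marks about 1 in 20 sets of independent, normally distributed values. The sets here share libraries and genes, so 7 of 68 cannot be set against that rate. The causes were not tested.

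On BCAA50, male replicate 5 had a median deviation of complex IV of 0.334 log2, against -0.0971 to -0.0198 in the other 5, and its members summed to 7736 FPKM, against at most 6724 FPKM. On BCAA200, male replicate 5 had a median deviation of complex III of -0.109, with the nearest other library at -0.0349. On BCAA200, female replicate 2 had Ndufs4 at 22.1 FPKM, below 24.4 to 25.8 FPKM in the others, and Ndufc1 at 27.8 FPKM, above 8.71 to 14.2 FPKM. On BCAA200, female replicate 3 had Ndufa4 at 184 FPKM, against 211 to 227 FPKM. On BCAA20, female replicate 1 had Atp5f1 at 118 FPKM, against 63.8 to 70.7 FPKM in the others.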

How the results depend on the processing

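No member passed the threshold in any comparison under any alternative tried, except 1 (Atp5g3, altered diets against BCAA100, log2 -0.241, adjusted p = 0.0291) without BCAA50 female replicate 1; leaving out each library gave 0 to 1 members there. The members' median for the altered diets lay between -0.16 and -0.088 with each library left out. It was -0.0966 with columns scaled to the same sum, -0.0723 with the median ratio (63 of 83 below 0, against 72) and -0.0932 with quantile normalization. Members with an unadjusted p under 0.05 there numbered 26, and 16 with the median ratio. For the difference between the sexes in that comparison, the members' median was -0.194, but -0.0115 without the 3 libraries of low Slc17a7 and -0.02 without the 4 doubted ones; the cause was not tested. The members' median for the altered diets was -0.0145 without the 3 libraries of low Slc17a7, against -0.116. No label says that replicate numbers pair the animals. Deviations from group means correlated at a median of 0.0193 for the same number and -0.00643 for different numbers. Such values cannot decide whether animals were paired. With a replicate block, the members' median for the altered diets was -0.116, and 28 members had an unadjusted p under 0.05. FPKM keeps no depth, so what sequencing depth limits cannot be given.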
